A study of Mus musculus with 28 samples.

Results

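The expression of 10 feedback genes of the ERK pathway was followed in mouse kidney and in sorted kidney macrophages, with and without loss of Fcgr2b and Rhbdf2. The genes are Dusp4, Dusp5, Dusp6, Spry1, Spry2, Spry4, Spred1, Phlda1, Etv4 and Etv5, chosen by name as genes that ERK signalling is known to induce: members of the DUSP, Sprouty and Spred, and ETV families, and Phlda1. All 10 had values among the 12315 genes listed for whole kidney, and 6 of them had values among the 10523 genes listed for sorted kidney macrophages. Dusp4, Spry1, Spry4 and Etv4 were not analysed here in macrophages.

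The ERK pathway passes signals from receptor tyrosine kinases, such as the EGF receptor, through RAS, RAF and MEK to the kinase ERK. Active ERK induces its own brakes: dual specificity phosphatases remove phosphate from ERK itself, and Sprouty and Spred proteins act upstream at the level of RAS and RAF. Levels of these transcripts are therefore widely used as a readout of recent ERK activity, and in the embryonic mouse kidney Etv4 and Etv5 are known for their part in branching of the ureteric bud.

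RNA sequencing was carried out on 28 libraries from female C57BL/6 littermates of 7 to 9 months. The 16 whole kidney libraries, from perfused mice, and the 12 macrophage libraries, from cells sorted as CD45+F4/80hiCD11b+Ly6G-Ly6C- after digestion with collagenase B, each fell into 4 genotypes, with n = 4 per genotype in kidney and n = 3 in macrophages. The genotypes were wild-type (WT), Rhbdf2-/-, Fcgr2b-/- and Fcgr2b-/-Rhbdf2-/-, the last called double mutant below. Rhbdf2 encodes iRhom2, a partner of the protease ADAM17 that sheds EGF receptor ligands and TNF, and Fcgr2b encodes the inhibitory IgG receptor, so the design asks what loss of iRhom2 does with and without the autoimmune disease of Fcgr2b-deficient mice. The labels name no Cre driver or transgene and do not say which part of either gene was deleted. They also leave unsaid whether libraries are from different mice, so the p-values reflect only how much these libraries vary, which may in part be technical.

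The listed genes held 29015894 to 41617902 reads per kidney library and 30852099 to 34871519 per macrophage library. Levels are given in CPM, the count of a gene's reads scaled to an effective library size, which differed from the plain total of reads. Rhbdf2 itself lay at 10.8 to 12.3 CPM in Rhbdf2-/- kidney against 12.9 CPM in WT, and Fcgr2b at 256 to 382 CPM in Fcgr2b-/- macrophages against 539 to 715 CPM in WT, so reads of both genes remained in their knockouts. Double-mutant macrophages held 455 to 550 CPM of Fcgr2b, which overlapped WT and lay above Fcgr2b-/-, and double-mutant kidneys held 20.7 to 41.5 CPM of Fcgr2b against 29.3 to 35.8 CPM in WT and 9.29 to 19.7 CPM of Rhbdf2. These levels do not check the genotype labels, which are followed below. In kidney each genotype was sequenced on its own lane, and lane and genotype cannot be told apart. The sorted cells carried the macrophage markers at 18197 to 30619 CPM in sum, for 9 of 10 listed markers, but also tubule transcripts, with 380 to 6880 CPM of 5 loop and distal tubule markers. Among kidney libraries, double-mutant replicate 4 stood apart with 335 CPM of macrophage markers against 616 to 991 CPM in the other double mutants and 14.3% mitochondrial reads against 9.19 to 9.73%. Fcgr2b-/- replicate 4 held 14.5% mitochondrial reads against 5.87 to 9.06% in the other Fcgr2b-/- kidneys. Rhbdf2-/- replicate 1 held the highest level of its genotype for 8 of 10 feedback genes while replicate 2 held the lowest for 8 of 10. In macrophages, WT replicate 3 and Rhbdf2-/- replicate 3 held 2572 and 2180 CPM of a 16-gene list of digestion and handling response genes, against 682 to 893 CPM in the other 4 libraries of these genotypes.

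In WT kidney the feedback genes spanned a wide range of levels. Dusp6, the cytoplasmic ERK phosphatase, was the most abundant per length of transcript at 18.3 ± 3.54 CPM per kb of exon (SD, n = 4), and its libraries did not overlap those of the next gene. Spry1 (9.21 CPM per kb), Spred1 (8.41) and Etv5 (8.33) followed with overlapping libraries, then Spry2 (5.93). Dusp4 (2.21) and Spry4 (1.93) overlapped, Phlda1 stood at 1.52, and Dusp5 (0.645) and Etv4 (0.476) were the lowest and overlapped each other. In WT macrophages Dusp6 was again first, at 128 ± 22.0 CPM per kb (SD, n = 3), followed without overlap by Spred1 (10.6) and Etv5 (7.98). Spry2 (3.16) and Phlda1 (1.28) overlapped, and Dusp5 (0.152) was last. The tissues were normalized separately and prepared with different kits, so these levels are set side by side without a test.

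**Figure D1:**
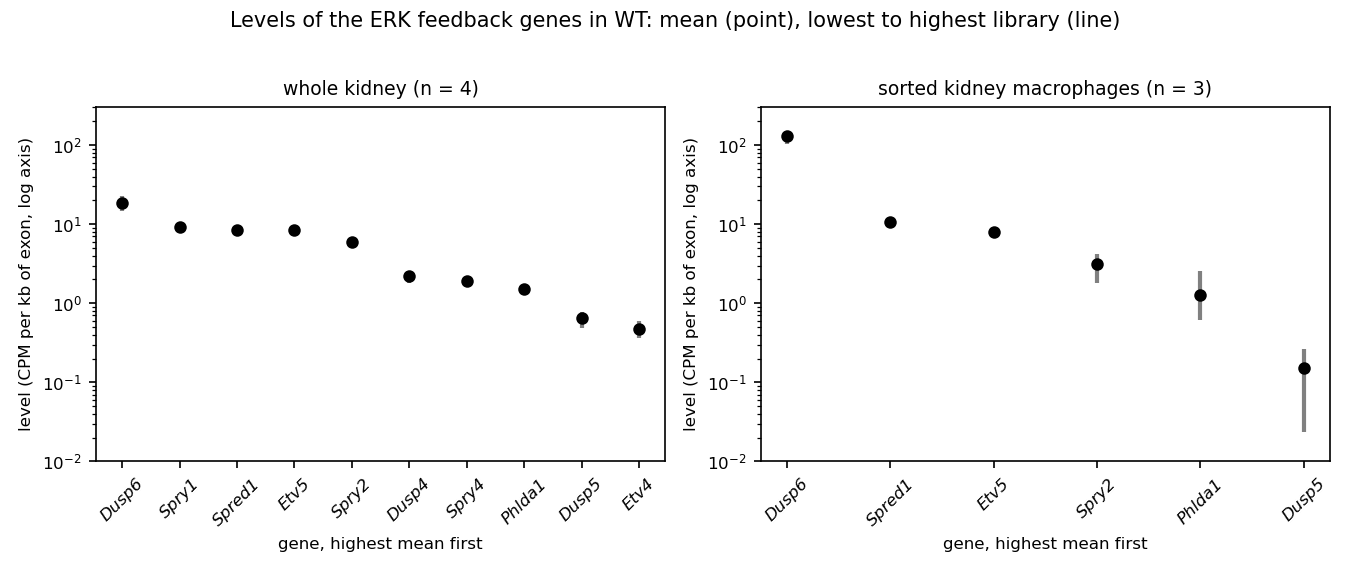
Levels of the ERK feedback genes in WT whole kidney (left, n = 4) and WT sorted kidney macrophages (right, n = 3), in CPM per kb of exon on a log axis, with the mean as a point and the lowest to highest library as a line. Dusp6 lay highest in both tissues, at 18.3 and 128 CPM per kb, while Etv4 was lowest in kidney and Dusp5 in macrophages.

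Promoter sequences from RefSeq on GRCm38.p6, covering 250 bases before to 50 bases after the transcription start, matched 6 of the 10 genes: Dusp5, Dusp6, Spry1, Spry2, Spred1 and Etv5. They were searched on both strands for the ETS core CCGGAAG, the AP-1 site TGANTCA, the cyclic AMP response core TGACG and the CArG box, the site named for serum response factor. The Dusp5 promoter held 2 CArG boxes, at -82 and -72 bases from the start, and 1 TGACG at -55 on the opposite strand, with no overlap between them. Of all 32851 promoters in the RefSeq table, 1.63% held a CArG box, 20.8% a TGACG, 8.86% the ETS core and 7.81% the AP-1 site. None of these letters occurred in the windows of the other 5 genes, and neither the ETS core nor the AP-1 letters occurred in that of Dusp5. The promoters of Dusp5, which rose in both tissues, of Dusp6, which rose in kidney and fell in macrophages of Fcgr2b-/- mice, and of Spry2, for a Sprouty gene measured in both tissues, are shown, with motif matches in capitals. They lie at chr19:53528895-53529194 on the plus strand for Dusp5, chr10:99262981-99263280 on the plus strand for Dusp6 and chr14:105896770-105897069 on the minus strand for Spry2.
Dusp5: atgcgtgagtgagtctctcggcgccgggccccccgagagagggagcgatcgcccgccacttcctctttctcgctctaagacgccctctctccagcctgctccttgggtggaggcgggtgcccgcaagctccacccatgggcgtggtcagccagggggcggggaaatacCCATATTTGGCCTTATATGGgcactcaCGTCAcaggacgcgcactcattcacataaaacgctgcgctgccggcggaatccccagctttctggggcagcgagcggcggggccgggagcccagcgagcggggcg
Dusp6: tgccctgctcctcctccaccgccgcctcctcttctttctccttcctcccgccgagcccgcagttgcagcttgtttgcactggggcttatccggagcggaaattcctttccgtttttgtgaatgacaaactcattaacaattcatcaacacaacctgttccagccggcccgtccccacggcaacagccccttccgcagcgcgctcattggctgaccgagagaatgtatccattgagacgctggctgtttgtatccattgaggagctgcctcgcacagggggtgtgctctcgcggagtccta
Spry2: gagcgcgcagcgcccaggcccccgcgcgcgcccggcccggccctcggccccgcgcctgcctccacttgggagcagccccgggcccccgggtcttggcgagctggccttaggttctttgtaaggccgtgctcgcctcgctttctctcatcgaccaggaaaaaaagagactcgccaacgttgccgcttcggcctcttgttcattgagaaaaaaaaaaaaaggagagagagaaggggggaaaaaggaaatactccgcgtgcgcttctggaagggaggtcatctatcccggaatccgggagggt

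In whole kidney, 9 of the 10 feedback genes were higher in Fcgr2b-/- than in WT, and Etv5 alone did not pass the test. Among all genes tested, 29.5% passed in that direction at a limma adjusted p below 0.05. The largest log2 changes were those of Dusp5 (1.71 ± 0.21, SE) and Etv4 (1.67 ± 0.18), and the median over the 10 was 0.76 against -0.01 over all genes. When Rhbdf2 was lost as well, 7 of the 10 were lower than in Fcgr2b-/- kidney, where 22.8% of all genes passed in that direction, and the median over the 10 was -0.74 against 0.00 over all genes. Fcgr2b-/- libraries lay wholly above WT for 8 of the 10 genes, all of them called, as they did for 25.3% of all genes, called or not. Double-mutant libraries lay wholly below Fcgr2b-/- for the 7 genes called lower and also for Dusp6 and Etv5, which were not called. Of all genes, called or not, 17.2% lay wholly below. Between Rhbdf2-/- and WT kidney limma called 0 of the 10, and 0 of all 12315 genes (0%), against 272 genes at an unadjusted p below 0.05, none of them a feedback gene, and 0 with voom. All log2 changes were computed on log2(CPM + 1) and so understate changes of genes with low levels.

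**Figure D2:**
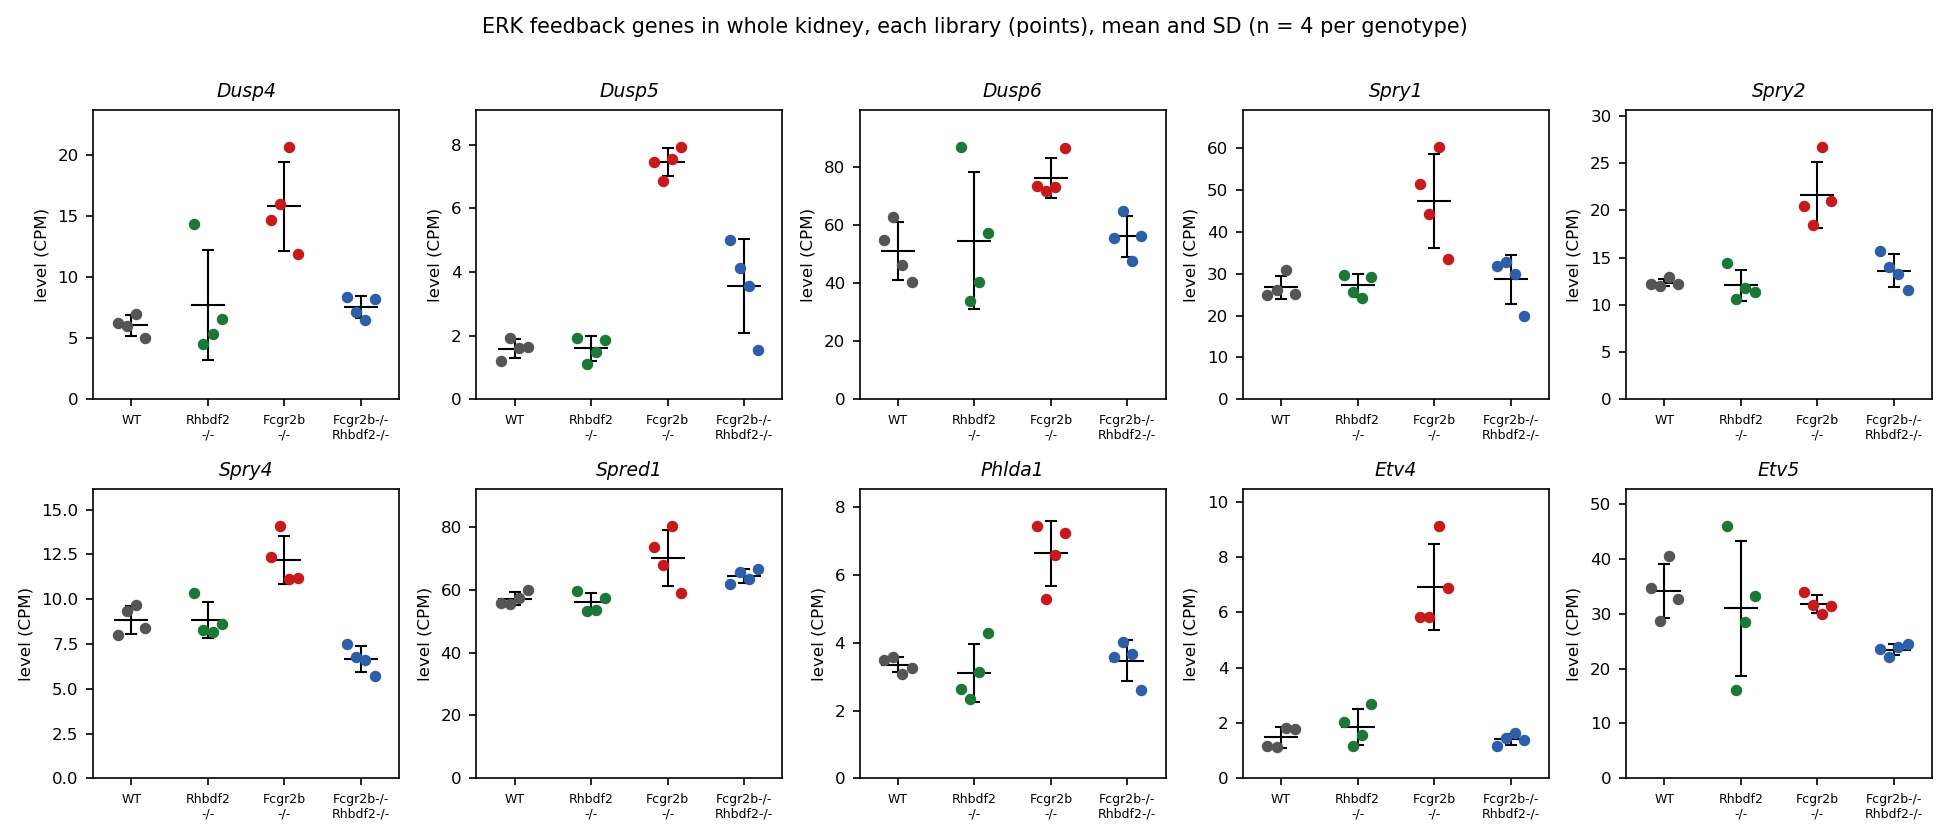
Level in CPM of each of the 10 feedback genes in every whole kidney library (points), with the mean and SD of each genotype (n = 4). The 4 Fcgr2b-/- libraries lie above all WT libraries for 8 genes, among them Dusp5 at 6.86 to 7.91 against 1.21 to 1.91 CPM, while Spred1 and Etv5 overlap.

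Dusp5, the nuclear phosphatase specific for ERK (chr19:53529109-53542431, plus strand, GRCm38), measured 1.21, 1.91, 1.60 and 1.66 CPM in WT kidney and 7.46, 6.86, 7.55 and 7.91 CPM in Fcgr2b-/- kidney. Rhbdf2-/- libraries measured 1.94, 1.10, 1.49 and 1.87 CPM, and double-mutant libraries 5.00, 4.13, 3.56 and 1.55 CPM. Every Fcgr2b-/- library lay above every other kidney library, and the double mutants fell between, except replicate 4, which lay within the WT range. The mean was 4.67-fold that of WT in Fcgr2b-/- kidney (limma adjusted p = 9.6e-06) and 2.23-fold in the double mutant. Dusp5 was lower in the double mutant than in Fcgr2b-/- kidney by a log2 change of -0.96 ± 0.21 (limma adjusted p = 0.00198), and was higher than in WT at 0.75 ± 0.21 (limma adjusted p = 0.0426).

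Dusp4, a nuclear phosphatase of ERK and related kinases (chr8:34807297-34819894, plus strand), measured 6.25, 5.98, 7.01 and 5.00 CPM in WT and 14.7, 16.0, 20.6 and 11.9 CPM in Fcgr2b-/- kidney. Rhbdf2-/- libraries measured 14.3, 4.53, 5.33 and 6.59 CPM and double mutants 8.39, 7.16, 6.52 and 8.23 CPM. The Fcgr2b-/- libraries lay above WT and double mutants without overlap, but Rhbdf2-/- replicate 1 reached into their range. The log2 change was 1.23 ± 0.25 for Fcgr2b-/- against WT (limma adjusted p = 0.000608) and -0.95 ± 0.25 for double mutant against Fcgr2b-/- (limma adjusted p = 0.00595).

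Dusp6 (chr10:99263231-99267488, plus strand) measured 55.0, 62.9, 46.2 and 40.4 CPM in WT and 73.6, 71.9, 73.2 and 86.5 CPM in Fcgr2b-/- kidney. Rhbdf2-/- libraries spread from 33.9 to 86.8 CPM, with 86.8, 33.9, 40.5 and 57.4 CPM, and double mutants measured 55.6, 65, 47.7 and 56.3 CPM. Fcgr2b-/- libraries lay above all WT and all double-mutant libraries, within a Rhbdf2-/- range that covered both. The rise was smaller than for the nuclear phosphatases, with a log2 change of 0.58 ± 0.22 (limma adjusted p = 0.0322), and the call was lost without WT replicate 3 or 4 or Fcgr2b-/- replicate 1 or 4, with adjusted p of 0.0502 to 0.0973. The difference between double mutant and Fcgr2b-/- did not pass (-0.44 ± 0.22, limma adjusted p = 0.116), although it did when these 2 genotypes were fitted alone (limma adjusted p = 0.0176) or without Rhbdf2-/- replicate 1 (limma adjusted p = 0.0364).

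Of the Sprouty genes, whose products restrain RAS and RAF activation, Spry2 (chr14:105891949-105896819, minus strand) varied little in WT. It measured 12.3, 12.0, 12.9 and 12.3 CPM in WT and 20.5, 18.4, 26.7 and 21.0 CPM in Fcgr2b-/- kidney. Rhbdf2-/- libraries measured 14.4, 10.6, 11.8 and 11.4 CPM and double mutants 15.8, 14.0, 13.3 and 11.6 CPM. All 4 Fcgr2b-/- libraries lay above the other 12, while the other 3 genotypes overlapped. The log2 change was 0.75 ± 0.11 against WT (limma adjusted p = 6.25e-05) and -0.62 ± 0.11 for double mutant against Fcgr2b-/- (limma adjusted p = 0.000523).

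Spry1 (chr3:37639947-37644598, plus strand), needed in the mouse to restrain RET signalling in the developing kidney, measured 25.0, 26.2, 30.8 and 25.1 CPM in WT and 51.3, 44.2, 60.1 and 33.5 CPM in Fcgr2b-/- kidney. Rhbdf2-/- libraries measured 29.8, 25.7, 24.2 and 29.2 CPM and double mutants 31.8, 32.8, 30.0 and 19.9 CPM. Fcgr2b-/- libraries lay above the other 12 libraries, with replicate 4 only just so. Spry1 changed by 0.77 ± 0.17 against WT (limma adjusted p = 0.00113) and by -0.70 ± 0.17 in the double mutant against Fcgr2b-/- (limma adjusted p = 0.00362).

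Spry4 (chr18:38586268-38601268, minus strand) measured 8.02, 9.33, 9.70 and 8.40 CPM in WT, 10.3, 8.30, 8.20 and 8.59 CPM in Rhbdf2-/-, 12.3, 14.1, 11.2 and 11.2 CPM in Fcgr2b-/- and 7.51, 6.75, 6.62 and 5.72 CPM in the double mutant. Double-mutant libraries lay below all libraries of the other 3 genotypes, and Fcgr2b-/- libraries above them all. The log2 change was 0.42 ± 0.10 for Fcgr2b-/- against WT (limma adjusted p = 0.00257) and -0.79 ± 0.10 for double mutant against Fcgr2b-/- (limma adjusted p = 3.57e-05). The double mutant was also lower than WT, by -0.37 ± 0.10 (limma adjusted p = 0.0407), a call that ended with median of ratios scaling (limma adjusted p = 0.0558), with these 2 genotypes fitted alone (0.0513), with voom (0.0617) and without any 1 of 10 of the 16 libraries.

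Spred1, which brings the RAS inactivator neurofibromin to the membrane (chr2:117121374-117182279, plus strand), changed least among the called genes. It measured 55.7, 55.4, 57.3 and 59.9 CPM in WT, 59.6, 53.1, 53.6 and 57.4 CPM in Rhbdf2-/-, 73.5, 67.7, 80.1 and 58.9 CPM in Fcgr2b-/- and 61.9, 65.6, 63.4 and 66.7 CPM in the double mutant. Fcgr2b-/- replicate 4 lay among the WT libraries, and the double mutants lay above WT without overlap. The log2 change was 0.28 ± 0.08 against WT (limma adjusted p = 0.00551), and the double mutant did not pass against Fcgr2b-/- (-0.11 ± 0.08, limma adjusted p = 0.252) except without Fcgr2b-/- replicate 4, the library with 14.5% mitochondrial reads (-0.19, limma adjusted p = 0.0215).

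Phlda1, a pleckstrin homology-like protein induced by growth factors (chr10:111506286-111508645, plus strand), measured 3.48, 3.59, 3.09 and 3.25 CPM in WT and 7.43, 5.28, 6.60 and 7.23 CPM in Fcgr2b-/- kidney. Rhbdf2-/- libraries measured 2.62, 2.34, 3.13 and 4.28 CPM and double mutants 3.58, 4.02, 3.66 and 2.61 CPM. The Fcgr2b-/- libraries stood above all others, and the other 3 genotypes overlapped. Phlda1 changed by 0.80 ± 0.15 against WT (limma adjusted p = 0.000319) and by -0.77 ± 0.15 in the double mutant against Fcgr2b-/- (limma adjusted p = 0.000765).

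The ETS transcription factors Etv4 and Etv5 diverged. Etv4 (chr11:101769742-101785371, minus strand) measured 1.18, 1.12, 1.83 and 1.78 CPM in WT, 2.04, 1.16, 1.58 and 2.69 CPM in Rhbdf2-/-, 5.82, 5.85, 9.11 and 6.89 CPM in Fcgr2b-/- and 1.16, 1.45, 1.64 and 1.37 CPM in the double mutant. Fcgr2b-/- libraries stood above the other 12, and the double mutants lay within the range of WT. The mean in Fcgr2b-/- kidney was 4.68-fold that of WT (limma adjusted p = 2.82e-06) and that in the double mutant 0.952-fold, and the log2 change from Fcgr2b-/- to double mutant was -1.70 ± 0.18 (limma adjusted p = 6.53e-06). Etv5 (chr16:22381309-22439719, minus strand) measured 34.8, 28.7, 40.6 and 32.7 CPM in WT, 46.0, 16.2, 28.5 and 33.3 CPM in Rhbdf2-/-, 34.0, 31.7, 29.9 and 31.4 CPM in Fcgr2b-/- and 23.5, 22.1, 23.9 and 24.4 CPM in the double mutant. All 4 double-mutant libraries lay below all WT and all Fcgr2b-/- libraries, inside the spread of Rhbdf2-/-. Etv5 passed in neither comparison, at -0.09 ± 0.21 for Fcgr2b-/- against WT (limma adjusted p = 0.717) and -0.42 ± 0.21 for double mutant against Fcgr2b-/- (limma adjusted p = 0.114), while the latter passed when these 2 genotypes were fitted alone (limma adjusted p = 0.00526) or without Rhbdf2-/- replicate 2 (limma adjusted p = 0.0145).

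Whether loss of Rhbdf2 acted differently in Fcgr2b-/- than in WT kidney was tested as an interaction, the double mutant minus Fcgr2b-/- difference less the Rhbdf2-/- minus WT difference. It was negative and passed for 7 of the 10 genes, namely Dusp4, Dusp5, Spry1, Spry2, Spry4, Phlda1 and Etv4, where 13.9% of all genes passed in that direction. The estimate was -1.90 ± 0.25 for Etv4 (limma adjusted p = 0.000183) and -0.78 ± 0.14 for Spry4 (limma adjusted p = 0.00144), and those of the other 5 ran from -0.58 for Spry2 to -1.14 for Dusp4, with adjusted p from limma of 0.015 to 0.0339. The calls for Etv4, Spry2 and Spry4 held without any single library, whereas 8 of 16 libraries ended the call for Spry1, 5 that for Phlda1, 3 that for Dusp5 and 1 that for Dusp4 when left out. The call for Dusp5 also ended on the deposited log2 CPM (limma adjusted p = 0.0525) and with voom (limma adjusted p = 0.0744). Without Rhbdf2-/- replicate 4 the count was 4, and without double-mutant replicate 4 it was 5. Dusp6 (-0.46 ± 0.31), Spred1 (-0.08 ± 0.11) and Etv5 (-0.20 ± 0.29) did not pass, with limma adjusted p of 0.286, 0.603 and 0.635.

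The double mutant was also compared with the genotypes not labelled as lacking Fcgr2b. Against Rhbdf2-/- kidney, limma called 0 of the 10 genes (3.5% of all genes passed), with 3 at an unadjusted p below 0.05 (Dusp5, Spry4 and Spred1), and voom called 0. Those nearest the threshold were Dusp5 at 0.75 ± 0.21 (limma adjusted p = 0.0569) and Spry4 at -0.37 ± 0.10 (limma adjusted p = 0.056). Without double-mutant replicate 4, the library low in macrophage markers, Dusp5 passed at 1.01 (limma adjusted p = 0.000532). Without Fcgr2b-/- replicate 4, Dusp5, Spry4 and Spred1 passed, with limma adjusted p of 0.046, 0.0403 and 0.0472. Against WT, Dusp5 was the gene called higher and Spry4 the gene called lower, where 4.52% and 2.77% of all genes passed in those directions. Leaving out 1 library ended the call for Dusp5 with 11 of the 16 libraries and for Spry4 with 10 of 16, with highest adjusted p from limma of 0.134 and 0.107, and that for Dusp5 also ended with these 2 genotypes fitted alone (0.0925) and with voom (0.0620). Without double-mutant replicate 4, Dusp5 stood at 1.01 over WT (limma adjusted p = 0.00032). The other genes lay between -0.51 for Etv5 (limma adjusted p = 0.148) and 0.28 for Dusp4 (limma adjusted p = 0.533). Etv5, whose double-mutant libraries all lay below WT, passed with these 2 genotypes fitted alone (limma adjusted p = 0.0244) and without Rhbdf2-/- replicate 2 (limma adjusted p = 0.0322).

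**Figure D3:**
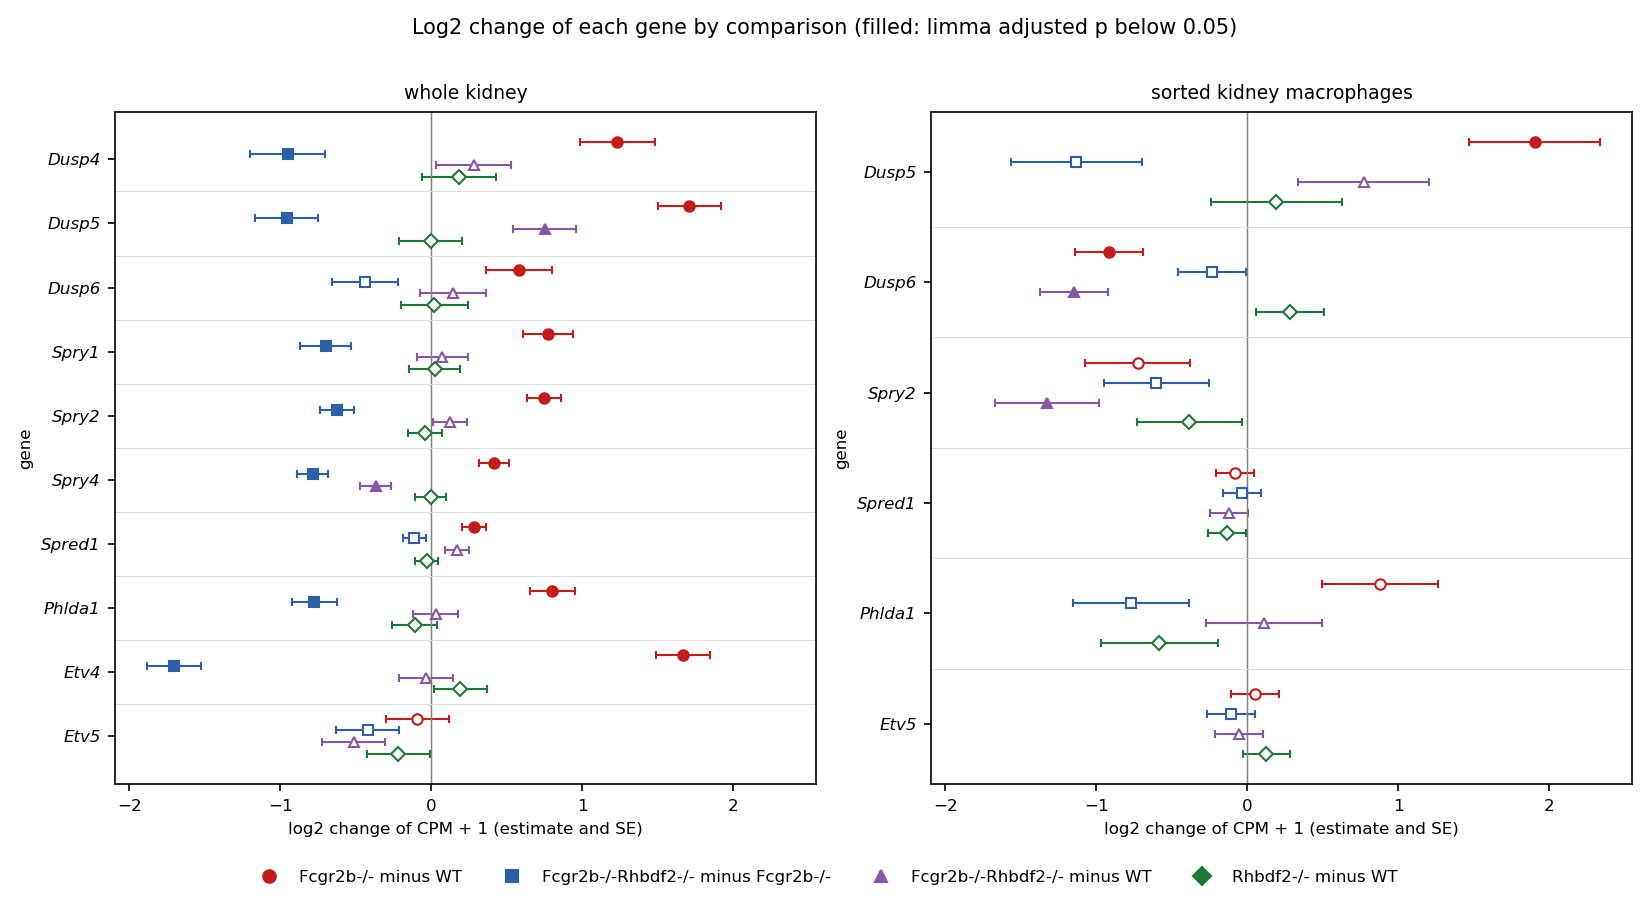
Log2 change of CPM + 1 with its SE for each feedback gene in whole kidney (left) and sorted kidney macrophages (right), in 4 comparisons, filled where the limma adjusted p was below 0.05. In kidney 9 genes rose in Fcgr2b-/- against WT (29.5% of all genes did) and 7 fell in the double mutant against Fcgr2b-/- (22.8%). In macrophages Dusp5 rose (1.90) and Dusp6 fell (-0.91) in Fcgr2b-/-, where 24.2% of all genes rose and 28.5% fell.

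Marker transcripts of several cell types in the kidney samples also differed between genotypes, and not all went the way of the feedback genes. The summed macrophage markers, 9 of 10 measured, ran from 239 to 273 CPM in WT, 244 to 330 CPM in Rhbdf2-/-, 639 to 1411 CPM in Fcgr2b-/- and 335 to 991 CPM in the double mutant. The 6 proximal tubule markers summed to 16437 to 19488 CPM in WT and 2316 to 4586 CPM in Fcgr2b-/-, against 11479 to 14877 CPM in the double mutant, and the 5 fibroblast and pericyte markers to 158 to 232, 341 to 1053 and 146 to 452 CPM. T cell markers (3 of 5 measured) reached at most 11.4 CPM in Fcgr2b-/- and 39.5 CPM in the double mutant, and neutrophil markers (2 of 4) at most 31.0 and 19.6 CPM. In Fcgr2b-/- against WT, 8 macrophage markers were higher and 1 lower, 6 proximal tubule markers were lower and 4 fibroblast and pericyte markers higher. The 2 neutrophil markers were higher there, and 0 T cell markers passed. In the double mutant against Fcgr2b-/-, 2 macrophage and 2 fibroblast and pericyte markers were lower and 5 proximal tubule markers higher. There 0 neutrophil and 0 T cell markers passed. The digestion and handling list, 15 of 16 genes measured, summed to 643 to 720 CPM in Fcgr2b-/- kidney and to 328 to 629 CPM in the other genotypes. Digestion was described for the sorted cells alone, and this list shares Egr1 and Ier3 with the ERK-responsive genes below. Of its 15 genes 11 were higher and 2 lower in Fcgr2b-/- than in WT (median 1.5, against 0.76 for the feedback genes), 1 was higher and 10 lower in the double mutant than in Fcgr2b-/- (median -1.25, against -0.74), and 9 were lower in the interaction. Over all genes, 29.5% were higher and 30.8% lower in the first comparison, 22.5% and 22.8% in the second, and 13.9% were lower in the interaction. The part of any of these lists in the changes of the feedback genes was not tested, and in whole tissue fewer cells of a type and less RNA per cell cannot be told apart. Per length of exon, the level in WT macrophages of Dusp5 was 0.152 and that of Phlda1 1.28 CPM per kb, beside 0.645 and 1.52 in WT kidney, and that of Dusp6 was 128 beside 18.3 CPM per kb. In Fcgr2b-/- macrophages Dusp5 was at 1.68, Phlda1 at 2.39 and Dusp6 at 68.0, beside 3.01, 3.01 and 27.3 CPM per kb in Fcgr2b-/- kidney. The tissues were normalized separately and prepared with different kits, and the difference between them was not tested.

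Other genes of the pathway were described from lists of known members. Of 18 ERK cascade genes, from adaptors to ERK itself, 5 were higher and 5 lower in Fcgr2b-/- than in WT kidney, with a median of -0.06. That is close to the shares over all genes, 29.5% higher and 30.8% lower, which apply to the next 2 lists as well. The adaptor Grb2 (0.42 ± 0.06) and Nras (0.78 ± 0.09) were higher, and the RAS exchange factors Sos1 (-0.48 ± 0.07) and Sos2 (-0.47 ± 0.08) lower, all past the limma threshold. Of 15 measured other negative regulators, 5 were higher and 1 lower (median 0.13). Dusp7, a further ERK phosphatase, rose by 0.64 ± 0.06 and Spred3, a Spred1 relative, by 1.55 ± 0.17, and Lztr1, which targets RAS proteins for degradation, changed by -0.46 ± 0.07, all past the limma threshold. Of 10 measured other genes known to respond to ERK, 7 were higher and 0 lower (median 1.36), led by the transcription factors Maff (2.77 ± 0.27) and Egr1 (3.02 ± 0.34), the cytokine Lif (3.26 ± 0.36) and the urokinase receptor Plaur (2.19 ± 0.23). Egr1 is also on the handling list.

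In the double mutant against Fcgr2b-/- kidney, 7 of the 10 measured ERK-responsive genes fell and 0 rose (median -1.44), where 22.8% of all genes were lower and 22.5% higher. Hbegf, a ligand of the EGF receptor, changed by -1.36 ± 0.17, Plaur by -1.72 ± 0.23, Maff by -1.99 ± 0.27 and Lif by -2.36 ± 0.36, all past the limma threshold. The ERK cascade list had 3 higher and 5 lower (median 0.00), with Nras at -0.51 ± 0.09 and Sos1 at 0.38 ± 0.07. Of the 15 other negative regulators, 1 was higher and 3 lower (median -0.08), with Spred3 at -1.33 ± 0.17 and Dusp7 at -0.50 ± 0.06.

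Apart from the 10 feedback genes, the genes whose level across the 16 kidney libraries ran most like the mean of the 10 feedback genes, each centred and scaled, were Zswim4, a zinc finger gene (Pearson r = 0.964), the transcription factor Myc (0.959), the tetraspanin Tspan15 (0.956), the AP-1 subunit Jun, which is on the handling list (0.955), and the melanosome adaptor Mlph (0.952). These are descriptions over libraries that share the difference between genotypes, and r has no test here. Across the 12 macrophage libraries and the 6 genes measured there, the closest were Sfmbt1 (0.867), Rlim (0.852), Prkd3 (0.850), Serpinb8 (0.836) and Wwox (0.823).

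In sorted macrophages the feedback genes did not move as a group. Against WT, Fcgr2b-/- macrophages had 1 of the 6 genes higher, Dusp5, and 1 lower, Dusp6, where 24.2% and 28.5% of all genes passed in those directions, and both genes changed without overlap, as 27% of all genes did upwards and 31.5% downwards. The median over the 6 was -0.02 against -0.09 over all genes. Loss of Rhbdf2 on the Fcgr2b-/- background gave 0 of the 6 past the limma threshold (29.6% of all genes passed), with 1 (Dusp5) at an unadjusted p below 0.05, and the interaction gave 0 of 6 (11.9%), with 0 at an unadjusted p below 0.05. Tests with voom also called 0 in both. Between Rhbdf2-/- and WT macrophages limma called 0 of 6, with 0 at an unadjusted p below 0.05 and 0 with voom, and 2 of 10523 genes (0.019%).

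**Figure D4:**
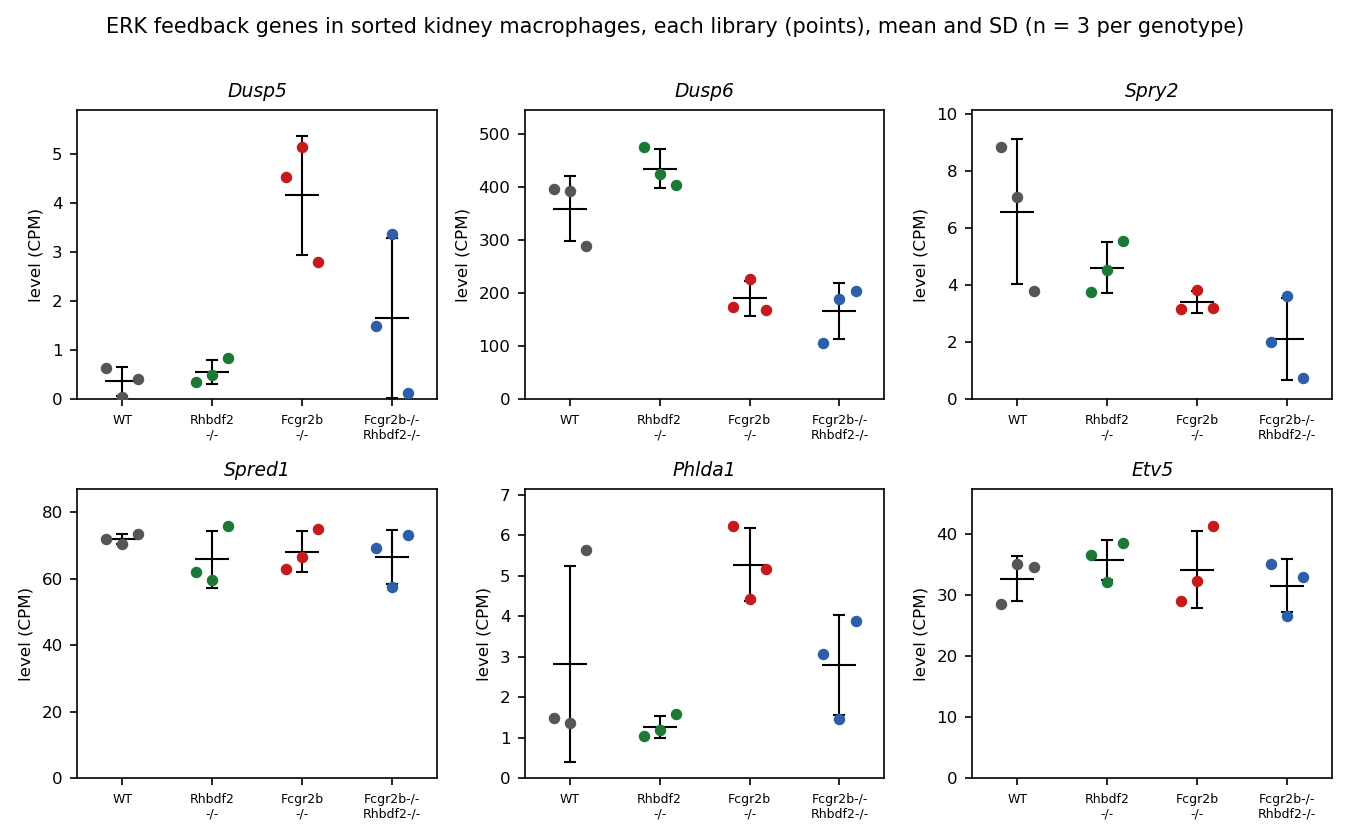
Level in CPM of the 6 measured feedback genes in every sorted macrophage library (points), with the mean and SD of each genotype (n = 3). Dusp6 lies at 169 to 228 CPM in Fcgr2b-/- and at 106 to 205 CPM in the double mutant, below its 288 to 475 CPM in WT and Rhbdf2-/-, while Dusp5 lies at 2.81 to 5.14 CPM in Fcgr2b-/-, a range that 1 double-mutant library enters at 3.36 CPM.

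Dusp6 was the feedback gene with the most reads in macrophages and went the opposite way to kidney. It measured 397, 393 and 288 CPM in WT, 475, 425 and 404 CPM in Rhbdf2-/-, 174, 228 and 169 CPM in Fcgr2b-/- and 106, 188 and 205 CPM in the double mutant. Both genotypes labelled as lacking Fcgr2b lay below the other 2 without overlap, and Rhbdf2-/- lay just above WT, also without overlap (0.29 ± 0.22, limma adjusted p = 1). The log2 change was -0.91 ± 0.22 for Fcgr2b-/- against WT (limma adjusted p = 0.00502), -1.15 ± 0.22 for double mutant against WT (limma adjusted p = 0.00795) and -1.43 ± 0.22 for double mutant against Rhbdf2-/- (limma adjusted p = 0.00297). Lower genes made up 8.58% and 9.03% of all genes in the last 2 comparisons. Between double mutant and Fcgr2b-/- the estimate was -0.24 ± 0.22 (limma adjusted p = 0.471).

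Dusp5 was scarce in WT macrophages, with 21, 1 and 13 reads, or 0.644, 0.0578 and 0.423 CPM, where 3 reads correspond to 0.0831 to 0.0989 CPM. It measured 0.353, 0.491 and 0.837 CPM in Rhbdf2-/-, 4.54, 5.14 and 2.81 CPM in Fcgr2b-/- and 1.49, 3.36 and 0.129 CPM in the double mutant. Fcgr2b-/- libraries lay above those of WT and Rhbdf2-/-, and the double mutants ran from the WT range up to the Fcgr2b-/- range. The log2 change was 1.90 ± 0.43 for Fcgr2b-/- against WT (limma adjusted p = 0.00319). For double mutant against Fcgr2b-/- it was -1.13 ± 0.43 (limma adjusted p = 0.0687), and it ran from -1.59 without double-mutant replicate 2, where it passed (limma adjusted p = 0.0166), to -0.62 without double-mutant replicate 3 (limma adjusted p = 0.252). Against WT the double mutant stood at 0.77 ± 0.43 (limma adjusted p = 0.229), at 1.29 without double-mutant replicate 3, which held 3 reads (limma adjusted p = 0.0332), and at 0.31 without double-mutant replicate 2 (limma adjusted p = 0.634).

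Spry2 measured 8.83, 7.10 and 3.81 CPM in WT, 3.75, 4.55 and 5.55 CPM in Rhbdf2-/-, 3.17, 3.85 and 3.20 CPM in Fcgr2b-/- and 2.00, 3.62 and 0.755 CPM in the double mutant. The double mutants lay below WT and Rhbdf2-/- without overlap, and Fcgr2b-/- libraries overlapped the lowest WT library, replicate 3. Spry2 was lower in the double mutant than in WT, at -1.32 ± 0.35 (limma adjusted p = 0.0238), a call that ended without WT replicate 1 or 2 or double-mutant replicate 1 or 3 (limma adjusted p of 0.0592 to 0.105). For Fcgr2b-/- against WT it stood at -0.72 ± 0.35 (limma adjusted p = 0.0963), at -1.02 without WT replicate 3 (limma adjusted p = 0.0272) and at -0.51 without WT replicate 1 (limma adjusted p = 0.297). It also passed without double-mutant replicate 3 (limma adjusted p = 0.0499). Against Rhbdf2-/- the double mutant stood at -0.94 ± 0.35 (limma adjusted p = 0.0748), at -1.28 without double-mutant replicate 2 (limma adjusted p = 0.0353) and at -0.58 without double-mutant replicate 3 (limma adjusted p = 0.222). It also passed without WT replicate 3 (limma adjusted p = 0.0465).

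Phlda1 measured 1.49, 1.36 and 5.63 CPM in WT, 1.06, 1.20 and 1.58 CPM in Rhbdf2-/-, 6.22, 4.44 and 5.16 CPM in Fcgr2b-/- and 3.08, 1.45 and 3.89 CPM in the double mutant. WT replicate 3, the WT library with 2572 CPM of handling genes, lay within the Fcgr2b-/- range and the other WT libraries far below it. Phlda1 did not pass between Fcgr2b-/- and WT with all libraries (0.88 ± 0.39, limma adjusted p = 0.0729) and did without that library (1.36, limma adjusted p = 0.00314), when the count of called genes among the 6 went from 2 to 4. It also passed with voom (1.25, limma adjusted p = 0.0407), and stood at 0.62 without WT replicate 2 (limma adjusted p = 0.248). The double mutants lay below all Fcgr2b-/- libraries without passing (-0.77 ± 0.39, limma adjusted p = 0.155), except without WT replicate 3 (limma adjusted p = 0.0489).

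Spred1 and Etv5 passed in no macrophage comparison. Spred1 ran from 57.5 to 75.7 CPM and Etv5 from 26.7 to 41.3 CPM over all 12 libraries, and every genotype overlapped every other. Their log2 changes in the 5 comparisons between genotypes lay between -0.18 and 0.13, with SEs of 0.13 for Spred1 and 0.16 for Etv5, the interaction apart.

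The handling list, 16 genes including immediate early genes that cell isolation can induce, summed to 4545 to 6056 CPM in Fcgr2b-/- macrophages, against 736 to 2572 CPM in WT, 682 to 2180 CPM in Rhbdf2-/- and 1207 to 1802 CPM in the double mutant. Of its 16 genes 8 were higher and 1 lower in Fcgr2b-/- than in WT, and 0 were higher and 7 lower in the double mutant than in Fcgr2b-/-. Over all genes, 24.2% were higher and 28.5% lower in the first comparison. In the second 29.6% passed in either direction, and 53.4% of those calls were higher and the rest lower. Loop and distal tubule markers summed to 380 to 1010 CPM in Fcgr2b-/- against 1513 to 6880 CPM in WT and 2726 to 3084 CPM in Rhbdf2-/-, and B cell markers (3 of 4 measured) to 98.3 to 109 against 179 to 240 CPM in WT and Rhbdf2-/-. In the double mutant the tubule markers summed to 414 to 2266 CPM and the B cell markers to 199 to 230 CPM, although 2 of the 3 B cell markers were called lower there than in WT. The part of these in the macrophage values of Dusp5, Dusp6, Phlda1 and Spry2 was not tested. Of the 18 ERK cascade genes, 6 were higher and 2 lower in Fcgr2b-/- than in WT macrophages (median 0.28), where 24.2% of all genes were higher and 28.5% lower, among them Mapk3, which encodes an ERK kinase, at 0.96 ± 0.09 and Hras at 1.00 ± 0.22. Of 11 measured other negative regulators 2 were higher and 3 lower, with Dusp1, a phosphatase that is also on the handling list, at 2.55 ± 0.48 and Dusp16, which acts on the JNK and p38 kinases, at -1.23 ± 0.14. Of 5 measured ERK-responsive genes 2 were higher, Plaur at 5.31 ± 0.35 and Ier3, which is also on the handling list, at 2.88 ± 0.34. The 2 lower were Ccnd1 at -1.58 ± 0.25 and Etv1 at -0.89 ± 0.25.

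The authors' deposited table gave the same calls for the feedback genes at FDR below 0.05. In kidney it called 9 of the 10 for Fcgr2b-/- against WT, 7 for Fcgr2b-/- against double mutant, 2 for double mutant against WT and 0 for Rhbdf2-/- against WT, and in macrophages 2, 0, 2 and 0 of 6. The share of all genes below that FDR was not counted here, so these counts are to be read beside the limma shares given above. In the authors' deposited table the log2 fold change of Dusp6 in Fcgr2b-/- against WT was 0.577 in kidney (FDR = 0.0411) and -0.918 in macrophages (FDR = 0.00624).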

How the data were processed

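Per the labels' protocols, a TruSeq polyA kit was used for whole kidney RNA and SMART-Seq v4 for sorted cells, with single-read Illumina sequencing. The deposited values are log2 CPM per gene, per the file headers, together with the authors' log2 fold changes and their p-values and FDR values. The steps of the CPM values gave an effective library size that differed from the plain total of reads. The submitters' processing notes name mm10 and GRCm38. Aligner, counter, annotation and use of strand were not given in the sources used here. Overlapping antisense transcripts therefore cannot be told apart from the genes. Exon lengths are those of the deposited tables, per the file headers.

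Values were turned back to CPM, and log2(CPM + 1) was tested with limma 3.58.1 (R 4.3.3, trend fit), with the 4 genotypes of a tissue in 1 fit and Benjamini-Hochberg adjustment over all 12315 or 10523 genes. A gene was called at an adjusted p below 0.05. Whole reads were recovered from the CPM steps (100% of 815 kidney and 1321 macrophage low values lay within 0.1 read of a whole number) and tested with voom as an alternative. A single read equalled between 0.0226 and 0.0353 CPM in kidney libraries and between 0.0277 and 0.0330 CPM in those of macrophages, and limits drawn from it cover counting error only. No libraries held identical values. The fits were also run on simulated data. Far fewer genes were changed there than limma called between Fcgr2b-/- and WT in either tissue. That run therefore does not check the calls given here. Tables and plots were made with python 3.11.15, pandas 2.3.3, numpy 2.4.6 and matplotlib 3.10.9.

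The 10 genes, the lists and the alternatives were chosen with earlier results of these data known. All 10 genes are named whatever their result, up to 4 genes per list with the smallest limma p, and the 5 genes with the highest correlation. Titles of the double-mutant libraries name the Rhbdf2 knockout without Fcgr2b, and the genotype label was followed. Alternatives were a pseudocount of 0.5, the deposited log2 CPM, a mean CPM of at least 1, median of ratios scaling, a fit of the groups compared alone, voom, leaving out each library, and a replicate block where labels share a letter.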

Additional observations from a re-analysis of the deposited data

Results flagged for a closer look

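Dusp6 in Fcgr2b-/- kidney had 1 library, replicate 4 at 86.5 CPM, that lay far from the other 3 at 71.9 to 73.6 CPM. It was the only such library among 40 groups of 4 kidney libraries, where chance flags about 1 in 20.

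The effect of Rhbdf2 loss in kidney differed between the Fcgr2b-/- and the WT background, by the limma interaction test, for 7 of the 10 feedback genes. All 7 were negative, where 13.9% of all genes passed in that direction. The interaction was -1.90 for Etv4 (limma adjusted p = 0.000183), -1.14 for Dusp4 (limma adjusted p = 0.0252), -0.95 for Dusp5 (limma adjusted p = 0.0267, but 0.0525 on the deposited log2 CPM and 0.0744 with voom) and -0.78 for Spry4 (limma adjusted p = 0.00144). It was -0.72 for Spry1 (limma adjusted p = 0.0339), -0.66 for Phlda1 (limma adjusted p = 0.0285) and -0.58 for Spry2 (limma adjusted p = 0.015). Leaving out 1 library ended the call for Spry1 with 8 of the 16 libraries, for Phlda1 with 5, for Dusp5 with 3 and for Dusp4 with 1.

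Dusp6 moved in opposite directions in the 2 tissues. Between Fcgr2b-/- and WT its log2 change was 0.58 in kidney and -0.91 in macrophages, with every library on 1 side in each tissue, and the difference between tissues was not tested.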

How the results depend on the processing

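Over all alternatives, 1889 values for single feedback genes kept their side of the threshold, 54 lost the call and 21 gained it. Of values called in the main fit or the alternative, 0 changed direction. Direction was not scored for genes called in neither, and some of those changed sign. For example, Dusp4 in double mutant minus Rhbdf2-/- kidney ran from -0.08 to 0.41 with 1 library left out. With only the groups compared, the count of all genes was 3550 against 5578 for double mutant minus Fcgr2b-/- kidney, 599 against 1943 for double mutant minus WT macrophages and 5 against 2 for Rhbdf2-/- minus WT macrophages. Of the feedback genes, that fit called 1 against 2 for double mutant minus WT in each tissue: in macrophages Dusp6 kept its call and Spry2 lost it, and in kidney Dusp5 and Spry4 both lost theirs and Etv5 gained one. In kidney, voom called 77 against 431 genes for double mutant minus Rhbdf2-/-, and 479 against 898 genes and 0 against 2 feedback genes for double mutant minus WT, where median of ratios scaling called 1. For Rhbdf2-/- minus WT macrophages the deposited log2 CPM called 1 gene and voom 0. The cause of these shifts was not tested. Higher genes made up 66.4% of calls for double mutant minus Rhbdf2-/- kidney, 77.2% after median of ratios scaling and 54.5% with voom, and for double mutant minus WT kidney 62.0%, 70.3% and 49.5%.

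Leaving out 1 library at a time, the counts of all genes ran from 27 to 1566 for double mutant minus Rhbdf2-/- kidney, 121 to 1706 for double mutant minus WT kidney, 598 to 2601 and 450 to 3007 for the same comparisons in macrophages, 2 to 8 for Rhbdf2-/- minus WT macrophages and 517 to 1304 for the macrophage interaction (1255 with all). Counts of feedback genes ran from 0 to 3 and 0 to 2 for double mutant minus Rhbdf2-/- and minus WT kidney, 4 to 7 for the kidney interaction, and in macrophages 2 to 4 for Fcgr2b-/- minus WT, 0 to 1 for double mutant minus Fcgr2b-/-, 1 to 2 for double mutant minus Rhbdf2-/- and 1 to 2 for double mutant minus WT.

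The letters a and b are shared by 2 WT and 2 Rhbdf2-/- macrophage libraries, and no label says that they pair. With the replicate block on these 4 libraries limma called 877 genes, and without the block, a fit chosen after seeing the data, 170, with 0 feedback genes in the block fit. Depth limits Dusp5 in macrophages, where WT libraries held 1 to 21 reads.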
